A study of Homo sapiens with 6 samples.

Results

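The solute carriers are a large superfamily of membrane transporters, named SLC with a family number and a member letter and number. They were examined in LX-2, an immortalised human hepatic stellate cell line, with and without TGF-β1. Members were chosen by name and by summed count: protein-coding genes of the deposited table whose symbol follows the SLC pattern and whose counts summed to at least 300 over the 6 libraries used. Of 340 protein-coding genes with such a name, 179 met the rule, of 58735 genes in the table. The rule used the summed level over both groups and not the difference between them, although the set was proposed with earlier results of these data in view. The 3 genes just inside the count threshold were SLC9A3 (313 counts), SLC6A16 (327) and SLC16A7 (350), and the 3 just outside were SLC2A9 (256), SLC12A5 (243) and SLC45A1 (242). Of the matched genes left out, 33 had no count and 128 had some counts but fewer than 300.

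Both groups were LX-2 cells labelled wild type that had received siRNA against NSUN2, an RNA methyltransferase that makes 5-methylcytosine, with a lipid transfection reagent. The 3 untreated libraries received no TGF-β1. The 3 TGF-β1 libraries received 5 ng/ml TGF-β1 for 24 h, starting 48 h after transfection. No time from transfection to harvest was recorded here for the untreated libraries, and a group difference in it was not tested. The series' design text names NAT10 for the same siRNA, and the sample labels were followed here. Samples without the siRNA were not analysed here, so the TGF-β1 difference described is the one seen in the presence of the siRNA. The labels call the replicates biological but do not say whether they came from separate cultures, so the p-values measure the spread between these libraries, which may be technical. NSUN2 itself read 81.4, 82.9 and 84.4 CPM (counts relative to library size) without TGF-β1 and 102.7, 97.0 and 101.9 with it. The siRNA target was thus higher in every TGF-β1 library (log2 change 0.28 ± 0.04, edgeR adjusted p 1.57e-06), and the part of that difference in the transporter results was not tested. The deposited tables also hold columns named con and TGFB, which match none of the samples listed for the series and were not used, so the knockdown was not checked.

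Solute carriers move sugars, amino acids, nucleosides, vitamins, metals, inorganic ions and metabolic intermediates across the plasma membrane and the membranes of organelles, as uniporters, as cotransporters driven by sodium or proton gradients, or as exchangers. The SLC25 family sits in the mitochondrial inner membrane and links mitochondrial to cytosolic metabolism. Hepatic stellate cells are the main source of scar collagen in the injured liver, and TGF-β1 is the best known signal for their activation into matrix-producing cells. Collagen synthesis draws on imported amino acids such as proline and glycine.

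Libraries held 25828504 to 30034762 counts. The members took 1.11 to 1.12% of all counts without TGF-β1 and 1.08 to 1.1% with it. These shares leave out the TMM scaling factors, which were 1.04 untreated and 0.96 with TGF-β1, so their difference depends on scaling. Correlations of log values were 0.988 to 0.990 within groups and 0.971 to 0.974 between them, and no library stood apart from its group. Of 13 stellate cell markers, 11 passed the filter on low counts and 6 were higher, 4 lower and 1 neither. Over all tested genes the shares were 20.2% higher and 18.7% lower. COL1A1, PDGFRB and TAGLN were among those that rose, with log2 changes of 1.49, 1.75 and 2.32. ACTA2, the smooth muscle actin used as a mark of activated stellate cells, was lower (-0.74), as were HAND2 (-0.74), GFAP (-0.75) and THY1 (-0.14). The GFAP call was lost when any library other than TGF-β1 replicate 1 was left out (-0.82 to -0.60, adjusted p 0.0548 to 0.156), and the THY1 call without untreated replicate 2 (-0.087, adjusted p 0.232) or TGF-β1 replicate 3 (-0.11, adjusted p 0.144). LRAT had no count and DES held 12 counts in all. Among defining markers of other liver cells, ALB held 1 count in all, PTPRC 9 and KRT19 9, while LYVE1, TYROBP and CFTR were at 0. Other genes of those lists were expressed: SERPINA1 held 3986 counts (log2 change -0.17, not called), TEK 4712 (0.84), CSF1R 1365 (1.5) and CD14 1065 (-1.18). The cholangiocyte genes SOX9 and KRT7 held 10397 (-0.38) and 594 (0.60) counts and moved in opposite directions. All of these but SERPINA1 were called. Summed marker levels, in TPM (the deposited FPKM rescaled to the same sum in every library), ran from 20.6 to 24.1 untreated against 18.2 to 19.1 with TGF-β1 for 9 hepatocyte genes, from 16.8 to 21.8 against 29.8 to 33.4 for 7 endothelial genes, from 21.4 to 26.8 against 15.3 to 21.7 for 7 leukocyte genes, and from 76.7 to 79.3 against 58.2 to 60.9 for 5 cholangiocyte genes. Sums in TPM depend on this rescaling. The part of these marker genes in the transporter differences was not tested.

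With TGF-β1, 47 of the 179 members were higher and 49 lower, and 83 passed the test in neither direction. The test was edgeR's quasi-likelihood test over 17215 genes with Benjamini-Hochberg adjusted p under 0.05. In the same fit, 20.2% of all tested genes were higher and 18.7% lower, 38.9% in either direction. Among the 11613 other protein-coding genes that reached the same count minimum, the shares were 26.3% higher, 23.2% lower and 49.5% in either direction, against 26.3%, 27.4% and 53.6% of the members. The members' share of higher genes was thus the same as this background to 3 digits and their share of lower genes was above it, a difference for which no test was made. The split of calls depended on scaling: with library totals in place of TMM factors, 30 members were higher and 81 lower, as that scaling moved the median log2 change of all genes by -0.12. No called member changed sign under it.

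Most of the changes were small. The median log2 change was -0.0044 over the members and -0.0082 over all tested genes, and the median absolute log2 change was 0.23 and 0.22, against 0.18 over the other protein-coding genes with the same count minimum. Only 7 members (3.91%) changed by at least 1 on the log2 scale, against 7.85% of all tested genes and 5.06% of those others. Groups did not overlap for 111 members (62%), 51 higher and 60 lower with TGF-β1, against 47.4% of all tested genes (24.1% higher and 23.3% lower) and 56.8% of the other protein-coding genes with the same count minimum (30% and 26.8%). Of the 96 called members, SLC22A15 and SLC6A16 alone had overlapping groups.

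**Figure D1:**
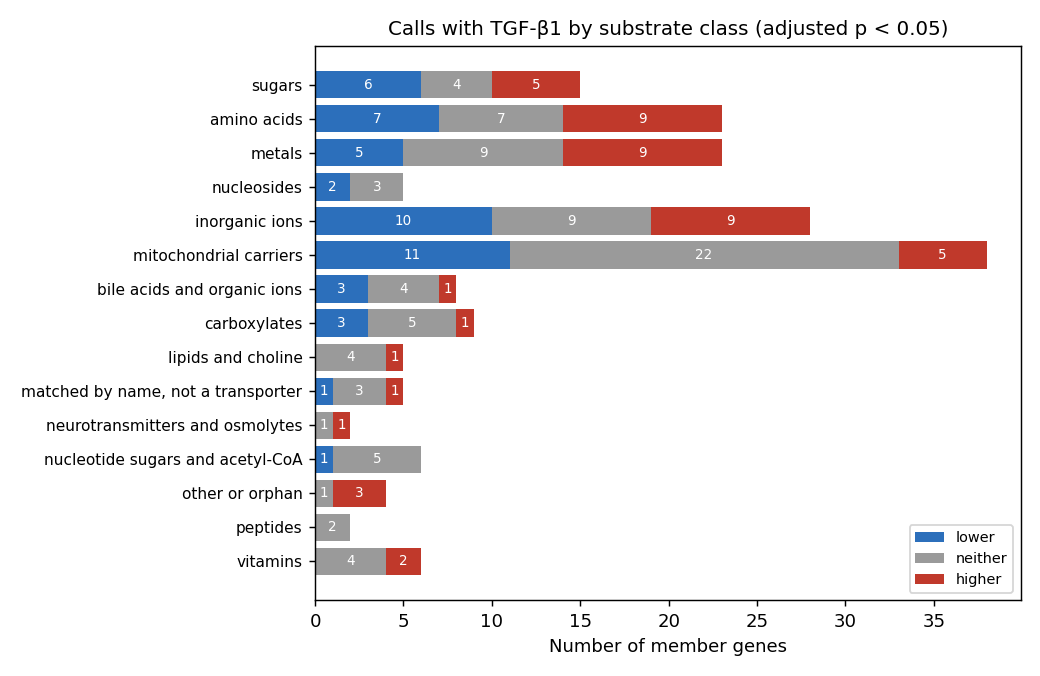
Number of members higher, lower and in neither direction with TGF-β1, by substrate class (edgeR quasi-likelihood test, adjusted p under 0.05, 3 libraries per group). Amino acid carriers had 9 higher and 7 lower members, metal carriers 9 and 5, and mitochondrial carriers 5 and 11. Of the other protein-coding genes with the same count minimum, 26.3% were higher and 23.2% lower.

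The largest rise belonged to SLC46A3, a lysosomal membrane protein whose family also holds the proton-coupled folate carrier (ENSG00000139508, chromosome 13, 28700064 to 28718970 of hg38). Its normalised read counts in CPM (counts relative to library size, which was scaled by TMM factors) were 17.6, 14.6 and 17.9 in the untreated libraries and 159.0, 172.6 and 153.4 with TGF-β1. The groups were far apart: 16.7 ± 1.82 against 161.7 ± 9.83 (SD, n = 3), 9.68-fold, a log2 change of 3.27 ± 0.06 (SE) with an edgeR adjusted p of 6.9e-31. The next largest rise was that of SLC19A2, a high-affinity thiamine transporter (ENSG00000117479, chromosome 1, 169463909 to 169486003). SLC19A2 read 5.53, 6.37 and 6.50 CPM untreated and 23.6, 24.2 and 26.0 with TGF-β1, 4.02-fold higher (log2 change 2.01 ± 0.11, edgeR adjusted p 6.29e-20). Both genes had no exonic base shared with another annotated gene. After them the rises were much smaller, with SLC38A5 next at 1.95-fold.

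Because these genes rose the most, the windows around their RefSeq transcription starts (250 bases before to 50 after, build GRCh38.p14, read along the gene) are shown, followed by that of SLC4A4, the member with one of the largest falls. Capitals mark CAGAC or its complement GTCTG, the core letters bound by SMAD proteins, and CACGTG, the E-box.
SLC46A3 chr13:28718921-28719220 (- strand): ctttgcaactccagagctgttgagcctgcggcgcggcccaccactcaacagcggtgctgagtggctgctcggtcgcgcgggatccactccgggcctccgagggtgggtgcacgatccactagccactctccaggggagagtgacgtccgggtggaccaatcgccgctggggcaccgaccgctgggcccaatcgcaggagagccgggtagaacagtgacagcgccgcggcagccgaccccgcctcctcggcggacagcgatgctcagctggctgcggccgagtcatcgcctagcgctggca
SLC19A2 chr1:169485921-169486220 (- strand): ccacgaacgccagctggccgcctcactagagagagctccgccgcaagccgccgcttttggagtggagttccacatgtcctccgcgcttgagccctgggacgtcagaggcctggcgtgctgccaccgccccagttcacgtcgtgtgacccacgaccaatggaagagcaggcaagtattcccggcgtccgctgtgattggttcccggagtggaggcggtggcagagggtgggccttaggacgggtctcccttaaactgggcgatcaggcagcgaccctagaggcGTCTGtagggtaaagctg
SLC38A5 chrX:48470211-48470510 (- strand): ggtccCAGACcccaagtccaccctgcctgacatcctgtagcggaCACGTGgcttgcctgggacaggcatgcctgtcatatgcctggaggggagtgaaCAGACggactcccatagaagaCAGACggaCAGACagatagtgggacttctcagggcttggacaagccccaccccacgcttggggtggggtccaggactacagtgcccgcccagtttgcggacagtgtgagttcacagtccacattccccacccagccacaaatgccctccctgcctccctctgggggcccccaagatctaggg
SLC4A4 chr4:71062410-71062709 (+ strand): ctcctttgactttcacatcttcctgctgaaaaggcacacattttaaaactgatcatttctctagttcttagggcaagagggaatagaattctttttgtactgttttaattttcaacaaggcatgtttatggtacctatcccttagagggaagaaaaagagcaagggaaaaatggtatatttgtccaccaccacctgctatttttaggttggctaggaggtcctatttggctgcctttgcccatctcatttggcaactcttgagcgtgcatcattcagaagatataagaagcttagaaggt
The SLC46A3 and SLC4A4 windows held none of the motifs searched, the SLC19A2 window held 1 CAGAC core, and the SLC38A5 window held 4 of these cores and 1 E-box. RefSeq listed 2 start windows for SLC19A2 and 5 for SLC4A4, of which the printed one is the nearest to the annotated gene start used for the match. Windows were found by symbol for 144 of the 179 members, SLC7A11, SLC2A3 and SLC43A3 not among them. CAGAC or GTCTG occurred in 44.4% of the members' windows (64) and in 45.0% of windows over 27305 genes, counting the first listed window of each gene, and in 19 of 36 higher, 16 of 39 lower and 29 of 69 other members. CACGTG occurred in 14.6% of the members' windows (21) and 7.4% of all windows: 8 of 36 higher members, 3 of 39 lower members and 10 of 69 others. The windows over 27305 genes were not limited to protein-coding or expressed genes, as the members were, so the 2 shares are not matched. The AP-1 letters TGANTCA occurred in 6.2% against 7.8%, the CRE letters TGACGTCA in 2.8% against 2.0%, and TGATGNAA, the form of ATF4 composite sites, in 4.2% against 3.7%. Each was searched on both strands, and a match is a description of letters and not of binding.

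**Figure D2:**
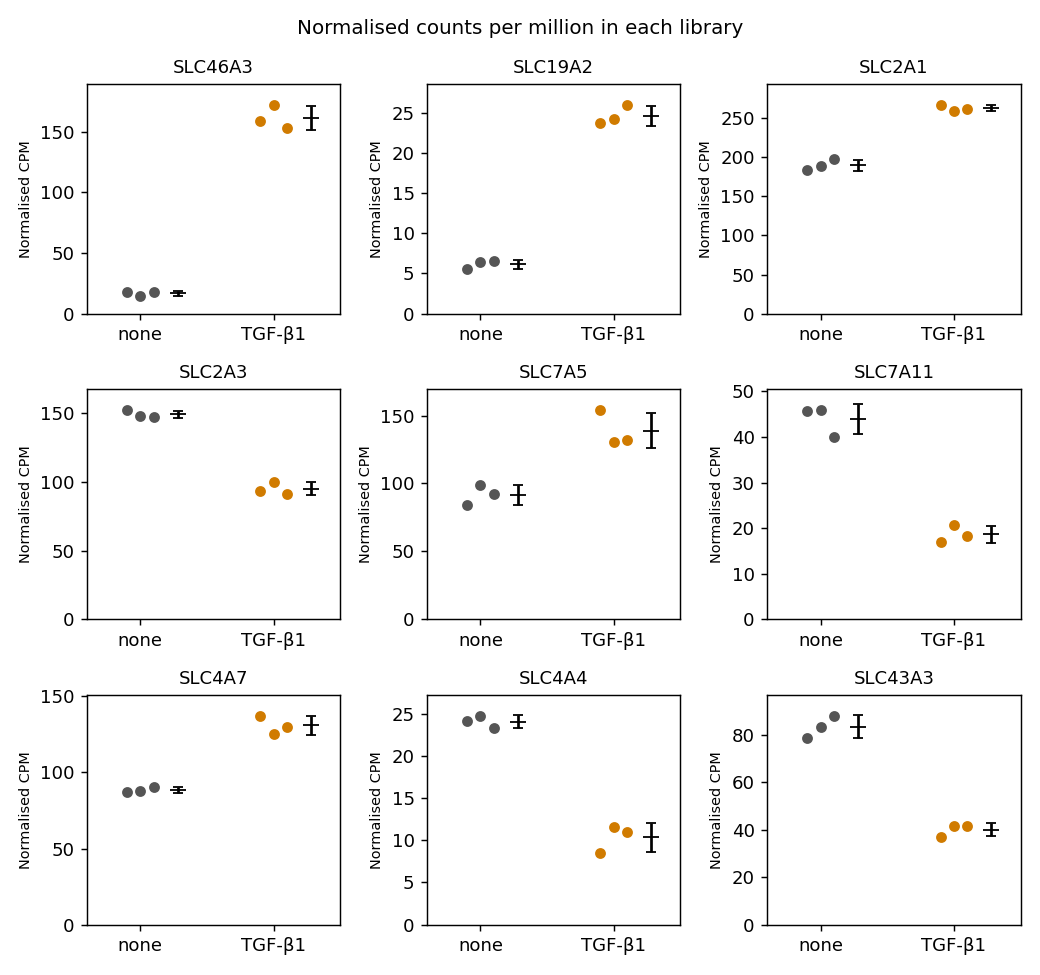
Normalised CPM in each of the 6 libraries for members the text describes, in 9 panels with their own axes from 0. Points are single libraries without and with TGF-β1, and bars the mean and SD of 3. SLC46A3 lies at 14.6 to 17.9 CPM untreated and 153.4 to 172.6 with TGF-β1, and SLC7A11 at 40.1 to 45.9 and 16.9 to 20.6.

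Amino acid carriers moved in both directions. Of 23, 9 were higher, 7 lower and 7 neither, with a median log2 change of 0.05. The called share was 69.6%, against 49.5% of the other protein-coding genes with the same count minimum, a difference not tested. SLC7A11 is the light chain of the cystine/glutamate exchanger that feeds glutathione synthesis (ENSG00000151012, chromosome 4, 138164097 to 138242349). SLC7A11 read 45.7, 45.9 and 40.1 CPM untreated and 16.9, 20.6 and 18.3 with TGF-β1. Every TGF-β1 library lay below every untreated one: 43.9 ± 3.31 against 18.6 ± 1.84 (SD, n = 3), 2.35-fold lower, log2 change -1.23 ± 0.08, edgeR adjusted p 3.26e-17. An antisense gene covers 9.0% of its exonic bases.

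SLC7A5, the light chain that carries leucine and other large neutral amino acids, moved the other way. It read 84.2, 98.9 and 92.1 CPM untreated and 154.0, 130.4 and 132.3 with TGF-β1, a log2 change of 0.60 ± 0.07 (edgeR adjusted p 5.77e-05), and 2 annotated pseudogenes held 196 counts beside its own 19202. SLC7A6, a light chain that exchanges cationic for neutral amino acids, had a log2 change of 0.53 ± 0.08, but 55.6% of its exonic bases are shared with SLC7A6OS and AC020978.9 on the opposite strand and the sources used here do not state whether counting used strand. Their common heavy chain SLC3A2, which brings the light chains to the plasma membrane, read 387.1, 419.7 and 382.3 CPM against 386.2, 409.8 and 397.4. These groups overlapped (log2 change 0.01 ± 0.03, edgeR adjusted p 0.925). Within the summed FPKM of the light chains SLC7A5, SLC7A6, SLC7A8 and SLC7A11, a level per length, SLC7A11 made up 18.4, 16.2 and 15.4% untreated and 4.46, 6.25 and 5.51% with TGF-β1. SLC7A5 made up 68.8, 71.1 and 72.0% and then 82.5, 80.5 and 80.8%. These shares were not tested.

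SLC38A5, a sodium-coupled carrier of glutamine, asparagine, histidine and serine, read 11, 10.4 and 10.1 CPM untreated and 19.7, 19.1 and 22.5 with TGF-β1 (log2 change 0.96 ± 0.10, edgeR adjusted p 1.07e-10). The cationic amino acid carrier SLC7A1, the most abundant amino acid carrier per length at 91.6 FPKM untreated, rose to 114.1 FPKM. Its CPM were 725.6, 736.4 and 715.6 against 943.4, 878.8 and 885.6, a log2 change of 0.31 ± 0.03. SLC1A5, the exchanger of glutamine and other neutral amino acids, rose by less, from 134.7, 135.0 and 138.4 CPM to 157.1, 148.0 and 156.4 (log2 change 0.18 ± 0.04, edgeR adjusted p 0.000193, 23.8% of its exonic bases shared with other genes). That call did not hold when libraries were scaled by their totals alone.

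SLC1A4, a carrier of alanine, serine and cysteine, fell from 35.0, 34.5 and 37.3 CPM to 25.1, 25.3 and 23.3 (log2 change -0.53 ± 0.07, edgeR adjusted p 6.06e-08). SLC6A17, a vesicular carrier of neutral amino acids, fell by 0.53 ± 0.10 on the log2 scale, from 21.5, 24.5 and 20.2 CPM to 18.0, 14.9 and 12.9. SLC38A2, a sodium-coupled neutral amino acid carrier induced by amino acid shortage in other settings, read 548.6, 479.4 and 504.1 against 498.9, 503.4 and 481.7 CPM, overlapping groups with a log2 change of -0.05 ± 0.04 (edgeR adjusted p 0.35). Without untreated replicate 2 it was called lower, at -0.09 and an adjusted p of 0.0391. Genes of the ATF4 and amino acid response outside the family, a list drawn up from textbook knowledge, showed no common direction: of 23 tested, 6 rose, 7 fell and 10 did neither, with a median log2 change of -0.01. Over all tested genes, 20.2% were higher and 18.7% lower. ATF4 itself rose by 0.33 and MTHFD2, of mitochondrial folate metabolism, by 0.35, while the serine synthesis genes PHGDH and PSAT1 had log2 changes of -0.39 and -0.35.

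**Figure D3:**
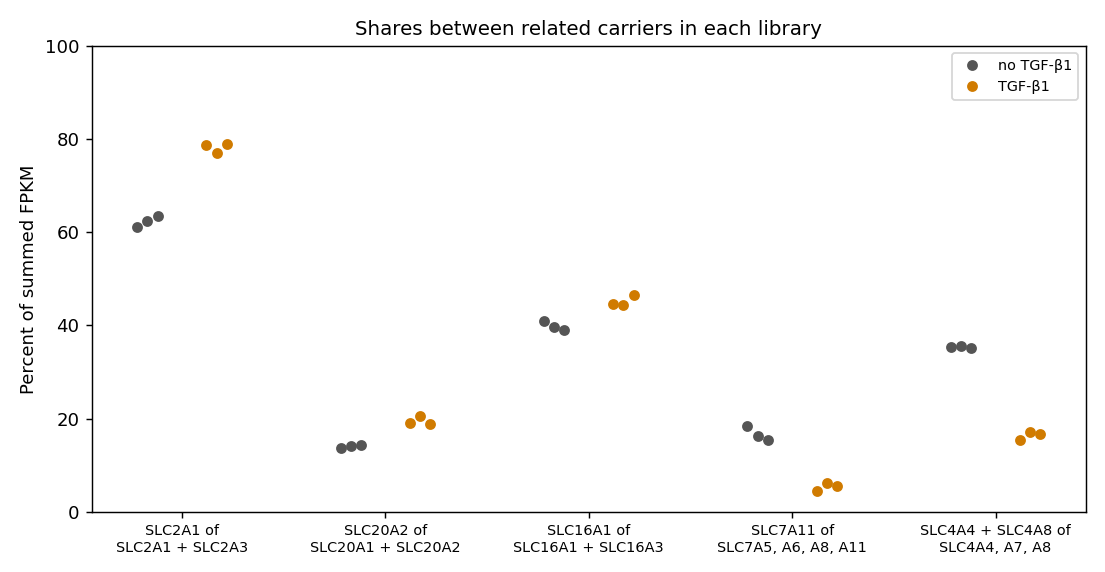
Share of one carrier in the summed FPKM of its related carriers, in percent, for each library. SLC2A1 makes up 61.1 to 63.5% of SLC2A1 plus SLC2A3 untreated and 77.1 to 78.9% with TGF-β1, and SLC7A11 15.4 to 18.4% and 4.46 to 6.25% of 4 light chains.

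Of 15 sugar carriers, 5 were higher, 6 lower and 4 neither, with a median log2 change of -0.17. The called share was 73.3%, against 49.5% of the other protein-coding genes with the same count minimum, a difference not tested. The glucose uniporters SLC2A1 (GLUT1) and SLC2A3 (GLUT3) moved in opposite directions. SLC2A1 read 183.4, 188.1 and 197.0 CPM untreated and 267.1, 258.8 and 261.8 with TGF-β1. The groups did not overlap: 189.5 ± 6.89 against 262.6 ± 4.18 (SD, n = 3), 1.39-fold higher, log2 change 0.47 ± 0.03, edgeR adjusted p 5.01e-15. SLC2A3 read 152.4, 148.1 and 147.5 CPM untreated and 93.7, 100.3 and 91.0 with TGF-β1, 1.57-fold lower (log2 change -0.65 ± 0.04, edgeR adjusted p 4.62e-17). Its near copy SLC2A14 held 7 counts in all and 3 pseudogenes 29, beside 20960 for SLC2A3. Per length, SLC2A1 made up 62.3 ± 1.22% of the FPKM of both uniporters untreated and 78.3 ± 1.04% with TGF-β1 (SD, n = 3). TXNIP, which promotes uptake of GLUT1 from the cell surface, had a log2 change of -0.76 ± 0.04. ARRDC4, from the same list of transporter regulators, was not called (0.0086 ± 0.08, edgeR adjusted p 0.951). Surface GLUT1 was not measured.

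Among the other sugar carriers, SLC45A3, a proposed sugar carrier known as prostein, rose from 7.52, 7.94 and 8.39 CPM to 14.8, 14.8 and 14.4 (log2 change 0.89 ± 0.11, edgeR adjusted p 1.59e-08). SLC37A4, which brings glucose-6-phosphate into the endoplasmic reticulum, fell from 26.5, 25.6 and 25.7 CPM to 17, 16.9 and 18.2 (-0.58 ± 0.08). Its relative SLC37A2 fell from 38.2, 40.3 and 39.3 CPM to 23.3, 23.9 and 22.4 (-0.76 ± 0.07), and the myo-inositol cotransporter SLC5A3 had a log2 change of -0.47 ± 0.05. SLC45A4 read 13.6, 14 and 12.0 CPM untreated and 19.8, 14.3 and 14.4 with TGF-β1. That rise (0.29 ± 0.11, edgeR adjusted p 0.041) was called in only 6 of 14 alternatives. It was 0.12 with an adjusted p of 0.458 without TGF-β1 replicate 1, 0.22 with 0.195 without untreated replicate 3, and 0.31 with 0.0698 without untreated replicate 1. It was also lost with DESeq2 (adjusted p 0.115), voom (0.0629), limma on FPKM (0.226), upper-quartile factors (0.0882) and library totals (0.244).

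Of 9 carboxylate carriers 1 was higher and 3 were lower (44.4% called, against 49.5% of the other protein-coding genes with the same count minimum). SLC16A1, a proton-coupled lactate and pyruvate carrier, rose from 127.5, 122.6 and 123.4 CPM to 161.9, 160.5 and 166.5 (log2 change 0.39 ± 0.04, edgeR adjusted p 1.56e-11). SLC16A3, its lower-affinity relative used for lactate export in glycolytic cells, read 312.3, 314.9 and 327.1 against 340.0, 341.8 and 323.3 CPM. These groups overlapped (0.08 ± 0.03, edgeR adjusted p 0.0664), and without TGF-β1 replicate 3 the rise was called, at 0.10 and 0.0261. SLC16A7, a high-affinity pyruvate carrier, had the lowest log2 change of all members, -1.44 ± 0.28, at a level of 2.94 CPM untreated and 1.08 with TGF-β1. The chaperones that these carriers need at the plasma membrane moved apart: EMB rose by 0.93 ± 0.10 and BSG had a log2 change of -0.19 ± 0.03. Of 15 tested partners, chaperones and regulators of solute carriers, 2 rose and 9 fell, with a median of -0.19. NEDD4L, a ubiquitin ligase of several transporters, was among the lower ones, at -0.87 ± 0.04. Of all tested genes, 20.2% were higher and 18.7% lower, and no test was made of this list.

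Inorganic ion carriers moved in both directions, also within families. Of 28, 9 were higher, 10 lower and 9 neither, with a median log2 change of -0.12. The called share was 67.9%, against 49.5% of the other protein-coding genes with the same count minimum, a difference not tested. SLC4A4, the electrogenic sodium bicarbonate cotransporter (ENSG00000080493, chromosome 4, 71062667 to 71572087), read 24.1, 24.8 and 23.3 CPM untreated and 8.45, 11.6 and 10.9 with TGF-β1. The fall was 2.32-fold, from 24.1 ± 0.75 to 10.3 ± 1.67 (SD, n = 3), with a log2 change of -1.21 ± 0.10 and an edgeR adjusted p of 2.13e-13. SLC4A8, a sodium-driven chloride bicarbonate exchanger, fell by 0.67 ± 0.07 on the log2 scale, from 44.5, 44.5 and 48.4 CPM to 30.8, 27.1 and 28.3. The electroneutral cotransporter SLC4A7 rose instead, from 87.3, 87.6 and 90.6 CPM to 137.4, 125.3 and 129.9 (0.56 ± 0.04, edgeR adjusted p 1.21e-14). SLC4A2, which exchanges chloride for bicarbonate, rose from 142.2, 146.2 and 142.2 CPM to 227.0, 221.0 and 218.4 (0.63 ± 0.04, edgeR adjusted p 6.68e-19, 13.8% of exonic bases shared with opposite-strand genes). SLC4A4 and SLC4A8 together made up 35.4, 35.7 and 35.2% of the FPKM of the 3 sodium-coupled bicarbonate carriers untreated and 15.4, 17.2 and 16.7% with TGF-β1.

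**Figure D4:**
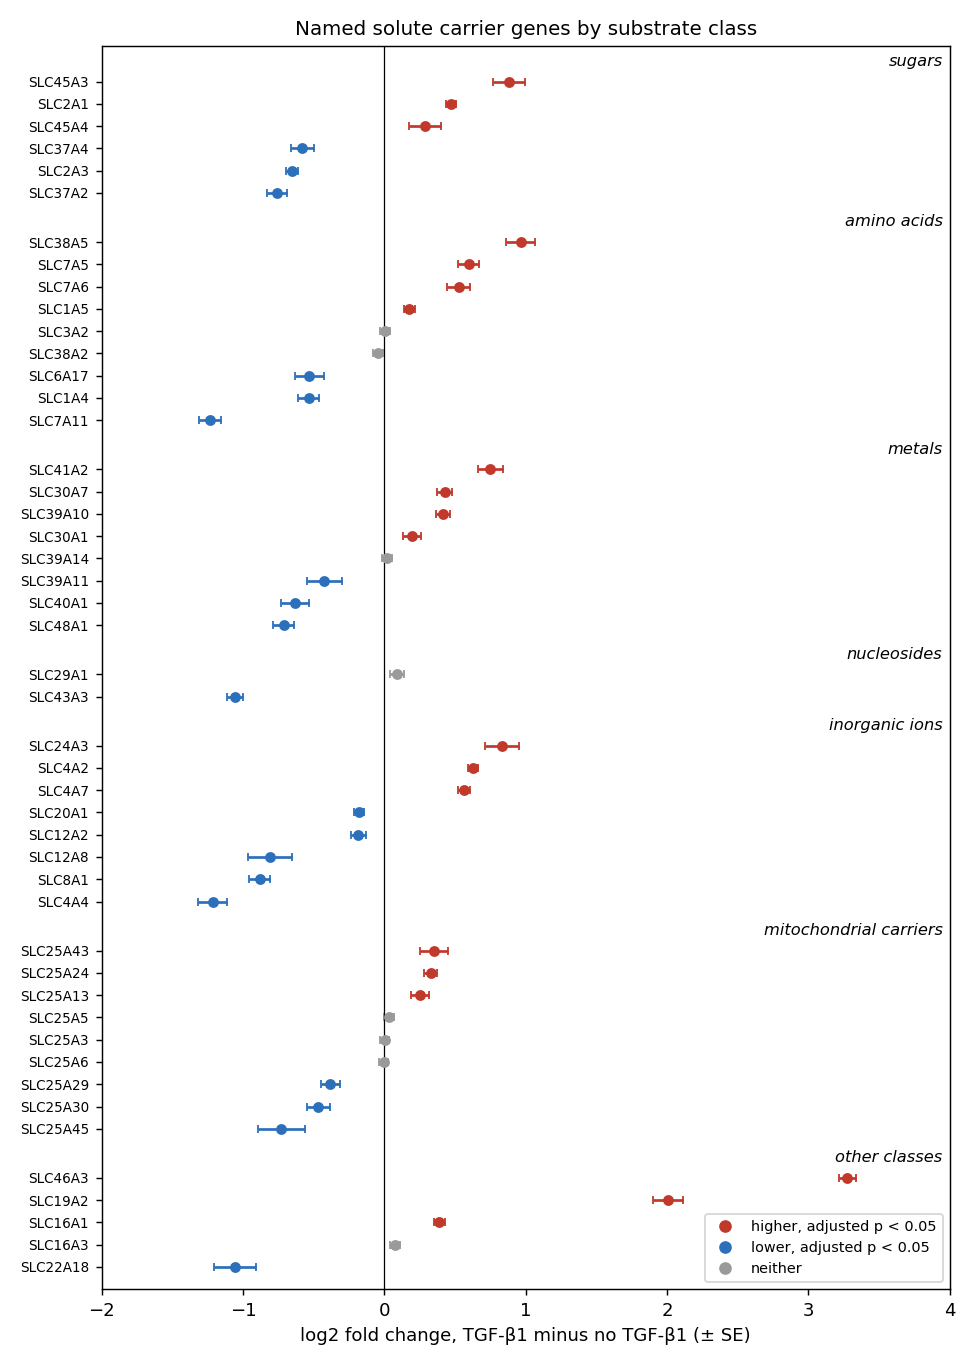
Log2 change with TGF-β1 minus untreated, with its SE, for members named in the text, by substrate class. Within classes the values fall on both sides of 0, from -1.23 (SLC7A11) to 0.96 (SLC38A5) among amino acid carriers and from -1.21 (SLC4A4) to 0.84 (SLC24A3) among inorganic ion carriers.

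The calcium exchangers SLC8A1 and SLC24A3 went in opposite directions, while SLC24A1 was at -0.18 and not called. SLC8A1, the sodium calcium exchanger, fell from 37.8, 36.2 and 36.1 CPM to 22.1, 19.2 and 18.5 (-0.88 ± 0.08, edgeR adjusted p 8.47e-13), and SLC24A3, which also moves potassium, rose from 8.03, 7.65 and 6.42 CPM to 13.6, 13.0 and 12.9 (0.84 ± 0.12, edgeR adjusted p 2.46e-07). Among the ATP-driven pumps, 3 of 12 rose and 3 fell, against 20.2% higher and 18.7% lower over all tested genes. The plasma membrane calcium pump ATP2B1 was at -0.76 ± 0.04 and the endoplasmic reticulum pump ATP2A2 at 0.21 ± 0.03.

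Members of the SLC12 family, the best known of which couple chloride to cations, were called in both directions. SLC12A2 (NKCC1) fell from 55.3, 54.3 and 57.1 CPM to 50, 47.7 and 49.2 (-0.18 ± 0.06, edgeR adjusted p 0.00727), and SLC12A8 was at -0.81 ± 0.16, while SLC12A4 was called higher at 0.16. The phosphate importers changed in opposite directions. SLC20A1 read 213.3, 209.8 and 199.9 CPM untreated and 183.2, 185.1 and 182.7 with TGF-β1 (-0.18 ± 0.04). The less abundant SLC20A2 read 40.1, 41.0 and 39.9 and then 51.1, 57.3 and 50.8 (0.40 ± 0.06). SLC20A2 made up 13.6 to 14.3% of their joint FPKM untreated and 18.9 to 20.6% with TGF-β1.

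Of 23 metal carriers, 9 were higher, 5 lower and 9 neither, with a median log2 change of 0.03. The called share was 60.9%, against 49.5% of the other protein-coding genes with the same count minimum, a difference not tested. The higher ones were carriers of zinc and magnesium, and carriers of these metals were also among the lower ones. SLC41A2, a magnesium carrier, rose from 14.1, 14 and 14.2 CPM to 24.0, 24.5 and 22.7 (0.75 ± 0.09, edgeR adjusted p 2.2e-09). SLC30A7, which loads zinc into the Golgi, rose by 0.43 ± 0.05, from 55.6, 53.7 and 52.9 CPM to 72.1, 75.3 and 70.7. The zinc importer SLC39A10 rose by 0.42 ± 0.05, from 68.8, 61.3 and 64.4 CPM to 88.8, 86.2 and 85.1. SLC39A6 and SLC39A7, the most abundant zinc carriers per length, went from 52.5 to 65.2 and from 55.3 to 65.5 FPKM. The zinc exporter SLC30A1 read 46.6, 47.2 and 41.4 CPM against 56.8, 47.5 and 50.9 (0.20 ± 0.06, edgeR adjusted p 0.0135). That call held in 9 of 14 alternatives. It was lost without TGF-β1 replicate 1 (0.13, adjusted p 0.133) or untreated replicate 3 (0.14, adjusted p 0.137), and with upper-quartile factors (0.15, 0.0614), library totals (0.078, 0.363) or limma on FPKM (0.18, 0.0988).

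Of the carriers of iron and heme named here, some were called lower and some were not called. SLC25A37 alone was called higher, a call that some settings lost. SLC40A1 and SLC48A1 were named for being among the largest falls of the class. SLC40A1 (ferroportin), the cellular iron exporter, fell from 19.1, 20.7 and 24.9 CPM to 13.9, 15.1 and 12.7 (-0.63 ± 0.10, edgeR adjusted p 1.56e-06). SLC48A1, which moves heme out of lysosomes, fell from 38.1, 43.6 and 39.8 CPM to 26.0, 22.2 and 26.2 (-0.71 ± 0.08, edgeR adjusted p 1.38e-10). SLC39A14, which imports zinc and iron, read 311.1, 288.9 and 295.4 against 317.2, 296.7 and 293.4 CPM, with overlapping groups and a log2 change of 0.02 ± 0.03 (edgeR adjusted p 0.723). Its relative SLC39A8 was called lower, also under all 14 alternatives. The endosomal iron carrier SLC11A2 was at -0.11 and not called (edgeR adjusted p 0.0986), although it was called lower without untreated replicate 1 (-0.14, 0.0479), with upper-quartile factors (-0.15, 0.0162) and with library totals (-0.22, 0.000334). SLC25A37 (mitoferrin), counted with the mitochondrial carriers, was called higher at 0.12. Leaving out untreated replicate 2 ended that call (0.089, adjusted p 0.0674), as did scaling with upper-quartile factors (0.074, 0.0954) or library totals (0.00016, 0.998). SLC39A11, a zinc carrier of internal membranes, was at -0.42 ± 0.12. Outside the family, the iron storage subunits FTH1 and FTL had log2 changes of -0.47 ± 0.03 and -0.48 ± 0.03. In the list of 22 tested genes of zinc, copper and iron handling to which they belong, 5 rose and 7 fell, with a median of -0.01. Over all tested genes, 20.2% were higher and 18.7% lower.

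Among the 5 nucleoside and nucleobase carriers, 2 were lower and none was called higher, with a median log2 change of 0.09. The called share was 40%, against 49.5% of the other protein-coding genes with the same count minimum. SLC43A3, a purine nucleobase carrier, read 78.4, 83.3 and 88.0 CPM untreated and 36.8, 41.3 and 41.7 with TGF-β1. It was 2.08-fold lower, 83.2 ± 4.81 against 39.9 ± 2.72 (SD, n = 3), with a log2 change of -1.06 ± 0.06 and an edgeR adjusted p of 1.25e-19. A gene annotated on the same strand shares 29.9% of its exonic bases. SLC29A1, the equilibrative nucleoside carrier ENT1, read 80.1, 81.6 and 77.4 against 89.0, 87.3 and 78.7 CPM (0.09 ± 0.05, edgeR adjusted p 0.138), and was called higher without TGF-β1 replicate 3 (0.15, adjusted p 0.0233). SLC29A2 (ENT2) was at -0.89 ± 0.23 with levels under 5 CPM. The summed level of the class went from 170.8 ± 2.35 to 126.8 ± 4.14 TPM (SD, n = 3). Of its members, SLC43A3 went from 17.9 to 8.6 FPKM, while SLC29A1, the other abundant one, was at 17.6 and 18.8 FPKM and was not called.

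Of 38 mitochondrial carriers, 5 were higher, 11 lower and 22 neither, with a median log2 change of -0.0011. Without TGF-β1 replicate 3 the lower ones numbered 6. Of the other protein-coding genes with the same count minimum, 26.3% were higher and 23.2% lower. The most abundant mitochondrial carriers differed by less than the spread of the libraries. The adenine nucleotide carriers SLC25A5 (ANT2) and SLC25A6 (ANT3), which exchange ADP for ATP, read 197.5, 208.7 and 198.1 against 200.4, 213.0 and 205.6 CPM and 339.6, 353.7 and 347.7 against 332.4, 359.9 and 345.2 CPM, with edgeR adjusted p of 0.488 and 0.934. The phosphate carrier SLC25A3 read 303.4, 313.8 and 301.7 against 306.6, 311.2 and 302.6 CPM (edgeR adjusted p 0.966). SLC25A4 (ANT1), the scarcer isoform, fell from 17.9, 16.4 and 20.2 CPM to 15.4, 14.9 and 13.3 (-0.32 ± 0.10, edgeR adjusted p 0.00829), a call lost without untreated replicate 3 (-0.24, adjusted p 0.0881) or TGF-β1 replicate 3 (-0.26, adjusted p 0.0626).

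Other mitochondrial carriers moved in both directions. SLC25A29, which carries basic amino acids, fell from 48.8, 43.6 and 48.9 CPM to 36.9, 34.5 and 37.3 (-0.38 ± 0.06, edgeR adjusted p 4.81e-06), and SLC25A30 from 29.8, 27.0 and 30.2 to 19.4, 21.0 and 22.5 (-0.47 ± 0.08). SLC25A45 was at 5.95, 6.27 and 6.53 CPM and then 4, 3.31 and 4.02 (-0.73 ± 0.17, edgeR adjusted p 0.000435). The higher ones included SLC25A24, a calcium-regulated carrier of ATP-Mg and phosphate (0.33 ± 0.05), SLC25A43 (0.35 ± 0.10) and SLC25A13, the aspartate/glutamate carrier citrin (0.25 ± 0.07), the last not called when libraries were scaled by totals alone. The summed level of the class was 2826 ± 42.7 TPM untreated and 2684 ± 13.7 with TGF-β1 (SD, n = 3). TPM leaves out the TMM factors, which were 1.04 untreated and 0.96 with TGF-β1, so the fall in this sum depends on scaling. It was not tested.

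**Figure D5:**
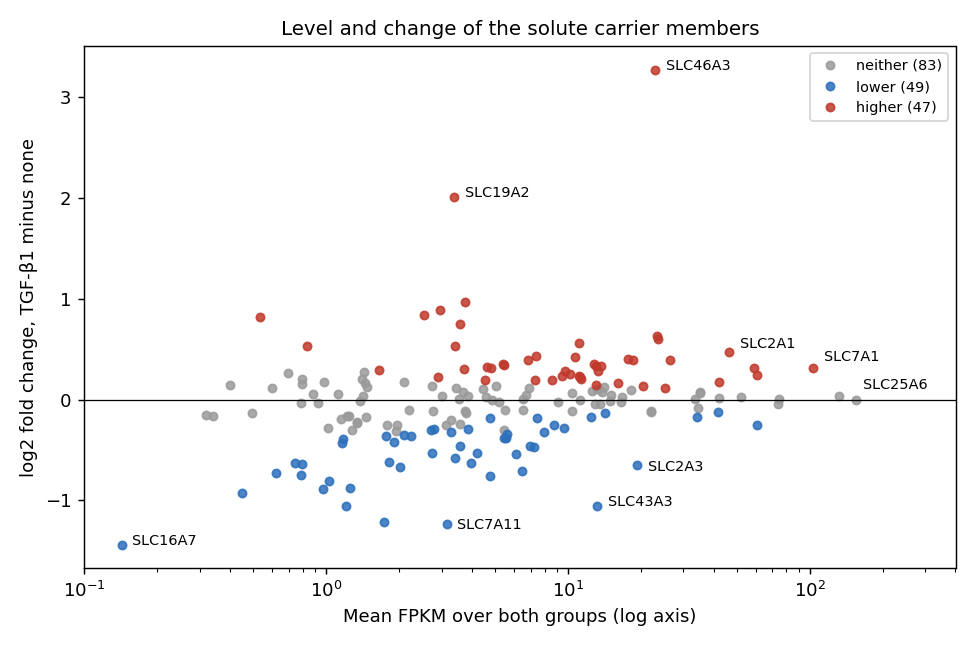
Log2 change with TGF-β1 against the mean level of each of the 179 members, coloured by call. SLC46A3 (3.27) and SLC19A2 (2.01) stand above the other members, and SLC25A6, the most abundant member, lies near 0.

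In the remaining 47 members, 10 were higher, 8 lower and 29 neither. The called share was 38.3%, against 49.5% of the other protein-coding genes with the same count minimum. SLC22A18, a member of the organic cation carrier family from an imprinted region, fell from 9.21, 8.43 and 9.28 CPM to 4.49, 4.05 and 4.4 (log2 change -1.06 ± 0.15, edgeR adjusted p 1.04e-07). SLC6A6, the taurine carrier, rose by 0.33 ± 0.05 and SLC27A4, a fatty acid carrier with acyl-CoA synthetase activity, by 0.40 ± 0.06. SLC35A5, of the nucleotide sugar carrier family, was at -0.55 ± 0.07, the only call among the 6 carriers of nucleotide sugars and acetyl-CoA. Of the 6 vitamin carriers, SLC19A2 and the riboflavin carrier SLC52A2 (0.22) were higher, the latter with 44.2% of its exonic bases shared with opposite-strand genes and its call lost without TGF-β1 replicate 1 (0.15, adjusted p 0.123) or untreated replicate 3 (0.18, adjusted p 0.0865), with library totals (0.10, 0.265) and with limma on FPKM (0.21, 0.054). The name pattern also caught 5 genes that are not transporters, of which SLC9A3R2 was called higher, in only 7 of 14 alternatives, and SLC2A4RG lower. Without untreated replicate 1, untreated replicate 3 or TGF-β1 replicate 1, SLC9A3R2 was at 0.10, 0.13 and 0.077 (adjusted p 0.193, 0.084 and 0.284). Without these 5, 46 of 174 members were higher and 48 lower.

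Over all members, the summed level was 9199 ± 93.0 TPM untreated and 9235 ± 152.1 with TGF-β1 (SD, n = 3). On this scale the difference was within the spread of the libraries. TPM leaves out the TMM factors, and the sum was not compared with them applied. The most abundant per length were SLC25A6 (155.6 FPKM untreated), SLC25A5 (130.3), SLC7A1 (91.6), SLC38A2 (75.1) and SLC3A2 (74.3). For comparison, the ABC transporters, which are driven by ATP, gave 7 higher and 9 lower of 23 tested. Of all tested genes, 20.2% were higher and 18.7% lower. Among the ABC transporters were the cholesterol exporter ABCA1 at 1.15 ± 0.04 and the drug exporter ABCG2 at -1.52 ± 0.13.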

How the data were processed

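RNA sequencing libraries of 6 LX-2 samples were analysed. The authors deposited a table of read counts per gene, whole numbers and not normalised, and a table of FPKM, which equals counts per gene length and per a library size scaled by the authors. The notes that the submitters gave on processing list HISAT2 2.2.1, fastp and build hg38, with no counting tool or strand setting (not given in the sources used here). In each of the 2 tables, 6 per-sample columns, named con and TGFB with a number, matched no sample and were not used.

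Counts were tested with edgeR 4.0.16 (R 4.3.3): filterByExpr (minimum count 10, minimum total 15), TMM factors, robust quasi-likelihood fit and test of TGF-β1 minus untreated over 17215 genes, with 4 residual degrees of freedom. An SE is the absolute log2 change divided by the square root of F. Alternatives used DESeq2 1.42.0 and limma 3.58.1, the last on voom values and on log2(FPKM + 1) with a mean FPKM of at least 0.5. All 179 members passed the filter. Counts of 17215 genes were simulated in 5 draws with 200 changed genes each. On these simulated counts the test recovered 45.2% of genes changed 1.25-fold, 57.6% at 1.5-fold, 76% at 2-fold and 93.2% at 4-fold. Of its calls, 8.99% were false, above the share that the adjusted p threshold allows. The false share depends on how many genes change, and 6697 genes were called in the data. The 8.99% is thus not an estimate for the calls in the data. Recovery was not measured for the members alone, which held at least 300 counts. Deviations of same-numbered replicates correlated at -0.0049, 0.011 and -0.0091, so the numbers were not taken as pairs.

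Members, substrate classes and gene lists were chosen with earlier results of these data known. Substrate classes and lists rest on textbook knowledge. Members named by rule had a mean CPM of 5 or more and were the 3 largest changes per direction in each of 6 classes and the 8 largest per direction over all, plus 18 well-known carriers whatever their result. Other members, such as SLC7A1, SLC4A8, SLC12A4, SLC5A3, SLC16A7, SLC20A2, SLC25A4, SLC29A2, SLC35A5, SLC39A6, SLC39A7, SLC39A8, SLC6A6, SLC27A4, SLC52A2, SLC11A2 and SLC25A37, and the genes outside the family were named after their values were seen. Some members are counted but not reported by name here. Exon overlap was read from GENCODE 29, whose coordinates matched all 179 members. Promoter windows came from RefSeq (GRCh38.p14).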

Additional observations from a re-analysis of the deposited data

How the results depend on the processing

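Of the 96 called members, 59 (29 higher, 30 lower) were called in the same direction under all 14 alternatives. DESeq2 size factors gave 47 higher and 49 lower members, voom and the replicate block 47 and 50 each, no filter 45 and 48, DESeq2's Wald test 42 and 44, upper-quartile factors 40 and 58, limma on FPKM 41 and 36 of 173 tested, and leaving out 1 library 41 to 48 and 39 to 50. The replicate block, fitted although the numbers did not pair the samples, kept all 96 calls. With library totals alone, 2019 genes were higher and 5354 lower over all genes tested, and 30 and 81 members, with 2 sugar carriers and 2 mitochondrial carriers higher and 10 metal carriers and 21 mitochondrial carriers lower. Of the 96 calls, 79 held there, and 32 uncalled members became lower. Leaving out 1 library gave 6 to 10 mitochondrial carriers lower and 0 to 1 nucleoside carriers higher. Among the genes named, signs reversed only for uncalled members near 0. With library totals the log2 changes were -0.11 for SLC3A2, -0.044 for SLC16A3, -0.027 for SLC29A1, -0.10 for SLC39A14, -0.12 for SLC25A3 and -0.084 for SLC25A5. With upper-quartile factors they were -0.040 for SLC3A2, -0.026 for SLC39A14, -0.043 for SLC25A3 and -0.010 for SLC25A5. Leaving out 1 library, they ran from -0.023 to 0.044 for SLC3A2, -0.094 to 0.0062 for SLC38A2, -0.012 to 0.048 for SLC39A14, -0.012 to 0.017 for SLC25A3 and -0.030 to 0.028 for SLC25A6. The cause was not tested. On limma with FPKM, SLC39A11 and SLC25A45 were not called.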
